A study of Mus musculus with 4 samples.

Results

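The NF-kappaB system was examined in granulocyte/monocyte progenitors (GMP) through 10 genes, the 5 subunit genes Nfkb1, Nfkb2, Rel, Rela and Relb and the feedback inhibitors Nfkbia, Nfkbie, Nfkbiz, Tnfaip3 and Bcl3. Its members were all probe sets that the array annotation assigns to one of these symbols. They came to 14 probe sets on both array types and 4 more on the larger array alone, of 45101 probe sets in all, and they read 9 of the 10 genes, where the arrays read 18193 named genes. No probe set is named Nfkb1 in the annotation used here, so Nfkb1 is not analysed here. Of the 9 genes 5 had enough signal to be tested, Nfkb2, Rela, Nfkbia, Nfkbie and Bcl3.

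Icsbp-deficient GMP were compared with wild type GMP. Icsbp, the product of Irf8, belongs to the interferon regulatory factors, which bind DNA and control gene expression. Each genotype had 2 preparations of cells sorted from the bone marrow of mice aged 10 to 16 weeks, each pooled from at least 8 Icsbp-deficient or at least 10 wild type mice. For each genotype 1 preparation was read on a 430A array and the other on a MOE430_2 array, which made 4 arrays. A mixed C57/Bl6 and S129Ola background is given for the mice of the wild type 430A array, whose label names no genotype; the design text places it among the wild type preparations. The sources used here do not give the strain of the other mice. Each preparation was a pool, so the arrays do not show how single animals differed.

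NF-kappaB is a family of dimeric transcription factors that inhibitor proteins hold in the cytoplasm. A kinase complex, IKK, marks the inhibitors for destruction when receptors for microbial products or cytokines are engaged, and the dimers then enter the nucleus. Among the genes they switch on are their own inhibitors, which ends the response. In myeloid cells the pathway is known for inflammatory gene expression and for survival.

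Because the feedback genes are known NF-kappaB targets, the DNA upstream of the members was read first. Promoter windows came from RefSeq, build GRCm38.p6, and were the 250 bases before an annotated gene start; 10 windows were found for 7 of the genes, Bcl3, Tnfaip3, Rel, Nfkbia, Nfkbie, Rela and Nfkb2. The consensus kappaB site was matched on either strand in 7 of the 10 windows and in 5 of the 7 genes, namely Nfkbia, Nfkbie, Tnfaip3, Rel and Nfkb2. Several of the matched windows belong to Nfkb2 and some of these overlap, so the windows are not separate members. The site was matched in 7.25% of the 32851 windows of all genes. That share is by window, and none was computed by gene. The promoter of Nfkbia is shown whole because this was the member that changed, with the kappaB letters in capitals, which lie 29 to 20 bases before the start (GRCm38.p6, chr12:55492648-55492897, minus strand).
Nfkbia: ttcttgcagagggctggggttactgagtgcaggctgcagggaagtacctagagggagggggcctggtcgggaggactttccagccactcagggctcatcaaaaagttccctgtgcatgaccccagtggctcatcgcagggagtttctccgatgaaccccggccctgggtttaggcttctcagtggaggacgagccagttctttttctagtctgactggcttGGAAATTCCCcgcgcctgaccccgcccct

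For comparison, stretches of 50 bases are given around the matches of 3 members that did not pass the test or were too dim for it, again with the kappaB letters in capitals. The stretches lie at chr17:45555574-45555623 on the plus strand for Nfkbie, chr11:23771032-23771081 on the minus strand for Rel and chr10:19015411-19015460 on the minus strand for the match nearest the start of Tnfaip3, all in GRCm38.p6. In Rel a match on each strand overlaps the other by all but 1 base, and the capitals mark both.
Nfkbie: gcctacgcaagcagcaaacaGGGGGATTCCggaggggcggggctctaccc
Rel: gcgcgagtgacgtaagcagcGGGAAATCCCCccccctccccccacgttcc
Tnfaip3: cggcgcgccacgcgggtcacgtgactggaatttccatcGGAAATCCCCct

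Motifs of the interferon regulatory factors were looked for in the same windows on both strands. The core of the interferon-stimulated response element was found in 0 of the 10 member windows and in 2.98% of all windows. The composite element that these factors share with ETS factors was found in 0 of the 10 and in 2.3% of all windows. The forms searched for differ at 1 base, so they cannot match at the same place on a strand. These searches describe letters in short windows and say nothing about binding.

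The cells carried the markers of GMP. All 10 GMP genes were bright enough to be tested, and the lowest scaled signal among them was 811. Of these genes Cd34 fell (-1.73 ± 0.13) and Fcgr3 rose (1.00 ± 0.11) by limma's test. Irf8 itself was read in both genotypes, its brighter probe set giving 2776 and 2725 in Icsbp-deficient and 3059 and 4798 in wild type GMP (log2 ratio -0.48 ± 0.16, limma adjusted p = 0.117). A second Irf8 probe set was at 0.06 ± 0.12. The sources used here do not say which exons were removed, so these signals check nothing about the labels. The deposited signals differed in scale, with trimmed means of 167 (Icsbp-deficient) and 498 (wild type) for the 430A type and 159 (Icsbp-deficient) and 160 (wild type) for the MOE430_2 type. The 3' to 5' signal ratio of the beta-actin control, a measure of RNA integrity, was 1.03 in Icsbp-deficient and 1.00 in wild type GMP on the 430A arrays, and 1.44 in Icsbp-deficient and 1.47 in wild type GMP on the MOE430_2 arrays.

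All signals are scaled to a trimmed mean of 500 for each array. A log2 ratio is the Icsbp-deficient minus the wild type value of log2(signal + 50), a scale that understates changes of dim genes. Pairs of values give the 430A array first and the MOE430_2 array second. The error after ± is limma's moderated standard error of the mean of n = 2 ratios, 1 for each array type, and adjusted p-values are Benjamini-Hochberg values over the 13576 tested probe sets. P-values rest only on the spread between these arrays. For each probe set most of that spread is borrowed from others of similar signal, since moderation added 9.34 degrees of freedom to 1. A bulk signal cannot tell fewer cells of a type from less RNA per cell.

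Of the 5 tested genes Nfkbia rose, and Nfkb2, Rela, Nfkbie and Bcl3 did not pass the test. Nfkbia encodes I-kappaB-alpha, the inhibitor that is destroyed and made again in each round of NF-kappaB activation. Its brightest probe set read 3704 and 3705 in Icsbp-deficient GMP, against 2586 and 1981 in wild type GMP. Both Icsbp-deficient values lay above both wild type values. The array types gave log2 ratios of 0.51 and 0.87, and their mean of 0.69 ± 0.13, or 1.61-fold, passed the test (limma adjusted p = 0.0121).

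The other probe sets of Nfkbia pointed the same way with unequal size. The probe set 1449731_s_at had signals of 962 and 868 in Icsbp-deficient and 593 and 423 in wild type GMP, and its log2 ratio of 0.82 ± 0.16 passed the test (adjusted p = 0.0138). The probe set 1448306_at had 1085 and 441 in Icsbp-deficient and 562 and 280 in wild type GMP. Its Icsbp-deficient value was the higher on each array type, although the genotypes overlapped across types, and its log2 ratio of 0.75 ± 0.15 passed as well (adjusted p = 0.0196). The dimmer 1420089_at, at 258 and 118 in Icsbp-deficient and 197 and 95.1 in wild type GMP, had 0.29 ± 0.19 and did not pass (adjusted p = 0.472). The probe set 1438157_s_at is on the MOE430_2 array alone, where its signal was 729 in Icsbp-deficient and 643 in wild type GMP, a log2 ratio of 0.18 with no test. The rise was thus read by 3 of the 4 shared probe sets at similar size, while 1420089_at and the untested 1438157_s_at gave smaller ratios.

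**Figure D1:**
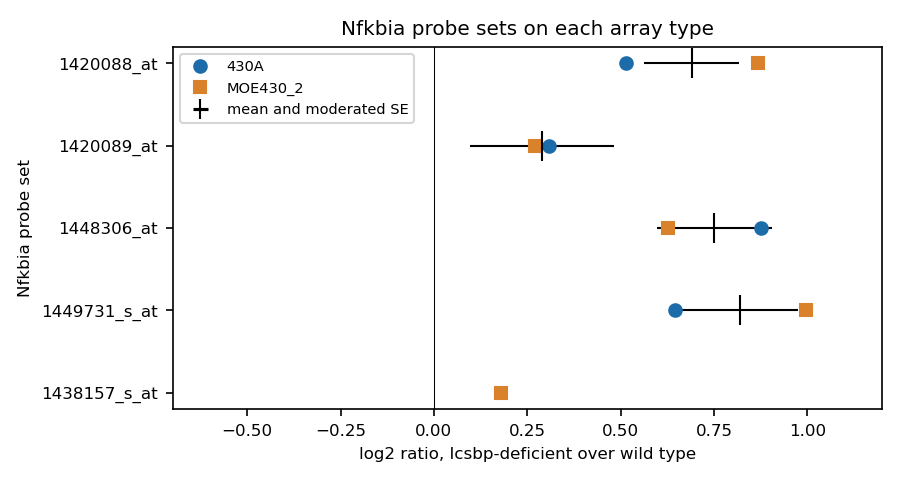
Log2 ratio of Icsbp-deficient over wild type GMP (x axis) for each probe set of Nfkbia (y axis), with circles for the 430A and squares for the MOE430_2 arrays and a black bar for the mean and its moderated standard error. Every ratio is above 0, and 3 probe sets have means between 0.69 and 0.82, while 1420089_at and 1438157_s_at lie at 0.29 and 0.18.

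Read against all genes, 1 of the 5 tested members rose, where 3.27% of the 7852 tested genes rose, and 0 of 5 fell, where 2.43% of the tested genes fell. At an unadjusted p under 0.05 in limma, 2 of the 5 members were higher, Nfkbia and Nfkb2, and 0 were lower, where 9.53% of all tested genes were higher and 10% lower at that threshold. Over probe sets 3 of 9 tested were called, all of Nfkbia and so not independent of each other, where 5.27% of all tested probe sets were called. The median log2 ratio of the 5 tested members was 0.25, against -0.01 over all tested genes. With the array type kept as a block, Nfkbia lost its call when dim probe sets were not filtered out (adjusted p = 0.0511) and when the intensity trend was dropped (adjusted p = 0.0972). Without the block nearly all calls ended, with only 1 of the 13576 probe sets called, and the adjusted p of Nfkbia was then 1.00.

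Among the subunits, none passed the test. Rela encodes the main activating subunit of the canonical pathway. Its signals were 1499 and 1177 in Icsbp-deficient GMP, against 1371 and 1052 in wild type GMP. The log2 ratio was 0.15 ± 0.13 (adjusted p = 0.61), and the array types gave 0.13 and 0.17. The difference between genotypes was smaller than that between array types.

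Nfkb2 encodes the precursor of the subunit that partners Relb in the noncanonical pathway. Its brighter probe set, 1429128_x_at, had signals of 196 and 94.9 in Icsbp-deficient GMP and 123 and 39.0 in wild type GMP. It was higher in Icsbp-deficient GMP on both array types, by 0.49 and 0.74, but the mean of 0.62 ± 0.22 did not pass the test (adjusted p = 0.16). The suffix of this probe set's name marks probes that may also bind other sequences. The second Nfkb2 probe set, 1425902_a_at, had 211 and 18.6 in Icsbp-deficient and 202 and 19.6 in wild type GMP, a log2 ratio of 0.01 ± 0.23. On the 430A arrays it was the brighter of the 2. The probe sets of Nfkb2 therefore disagreed, and the median of both gave 0.31 ± 0.22 (adjusted p = 0.457).

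Rel and Relb were too dim to be tested, their mean signals lying under the 40th percentile of all shared probe sets, a level of 82.9. Rel encodes c-Rel, an activating subunit that is prominent in lymphoid and myeloid cells. Its signals were 112 and 47.3 in Icsbp-deficient and 70.2 and 95.7 in wild type GMP. The genotypes thus changed places between the array types, with log2 ratios of 0.43 and -0.54. Relb, the activating subunit of the noncanonical pathway, had 11.4 and 8.51 in Icsbp-deficient and 5.12 and 9.35 in wild type GMP, all far below the offset of 50, so that no ratio can be read from it.

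Of the feedback inhibitors other than Nfkbia, Nfkbie encodes I-kappaB-epsilon, which holds subunit dimers in the cytoplasm and acts later than Nfkbia. Its signals were 111 and 88.3 in Icsbp-deficient and 113 and 104 in wild type GMP. The log2 ratio was -0.06 ± 0.22 (adjusted p = 0.915), so a change of modest size could not be detected at this signal. A second Nfkbie probe set, on the MOE430_2 array alone, had 209 in Icsbp-deficient and 194 in wild type GMP, a log2 ratio of 0.14. Nfkbie and Nfkbia are both inhibitors of the cytoplasmic kind, and only Nfkbia passed; the difference between them was not tested.

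Bcl3 is a nuclear relative of the inhibitors that binds subunit dimers on DNA. Its signals were 158 and 182 in Icsbp-deficient and 169 and 110 in wild type GMP. Its log2 ratios were -0.09 and 0.60, a mean of 0.25 ± 0.22 that did not pass (adjusted p = 0.608). Bcl3 was the 1 of 5 tested members whose array types differed in sign, where 34.7% of all tested genes did.

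Tnfaip3 encodes A20, a ubiquitin-editing enzyme that shuts down signalling upstream of IKK. Its shared probe set was too dim to be tested, at 106 and 29.6 in Icsbp-deficient and 66.5 and 41.4 in wild type GMP, with log2 ratios of 0.42 and -0.19. A brighter Tnfaip3 probe set on the MOE430_2 array alone had 132 in Icsbp-deficient and 179 in wild type GMP, a log2 ratio of -0.28. The 2 probe sets had the same sign on the MOE430_2 arrays.

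Nfkbiz encodes I-kappaB-zeta, a nuclear inhibitor relative that also helps to switch on some secondary inflammatory genes. Its representative probe set had 93.0 and 43.5 in Icsbp-deficient and 68.3 and 87.0 in wild type GMP, with log2 ratios of 0.28 and -0.51. The second shared probe set, 1448728_a_at, had 47.9 and 54.2 in Icsbp-deficient and 131 and 45.5 in wild type GMP, with -0.88 and 0.15. The 2 probe sets contradicted each other on both array types. On the MOE430_2 array alone another Nfkbiz probe set had 28.1 in Icsbp-deficient and 47.1 in wild type GMP, a log2 ratio of -0.31.

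All 4 members that were too dim to be tested (Rel, Relb, Nfkbiz and Tnfaip3) had ratios of opposite sign on the 2 array types. The same was true of 47.8% of the 4541 named genes under the filter. When the filter was dropped, the adjusted p was 0.964 for Rel, 0.912 for Nfkbiz and 0.9 for Tnfaip3. Of the 3 member probe sets on the MOE430_2 array alone that lay above the filter level, 0 changed by 2-fold or more, where 2.28% of such probe sets did.

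**Figure D2:**
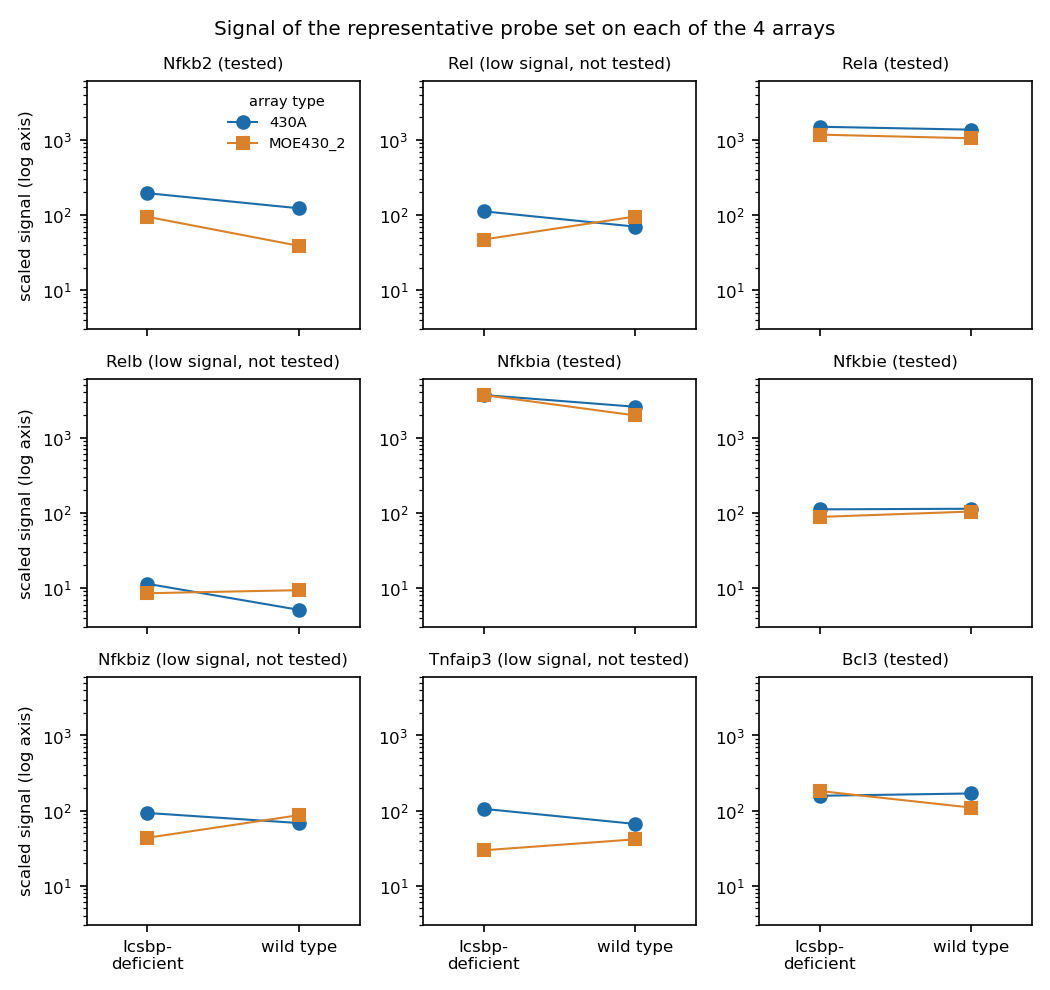
Scaled signal (y axis, log scale) of the representative probe set of each of the 9 measured genes, with Icsbp-deficient GMP left and wild type GMP right; circles are 430A and squares MOE430_2 arrays, and a line joins the 2 arrays of a type. Both lines fall to the right for Nfkbia, Nfkb2 and Rela, while the lines of Rel, Relb, Nfkbiz, Tnfaip3 and Bcl3 run in opposite directions.

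**Figure D3:**
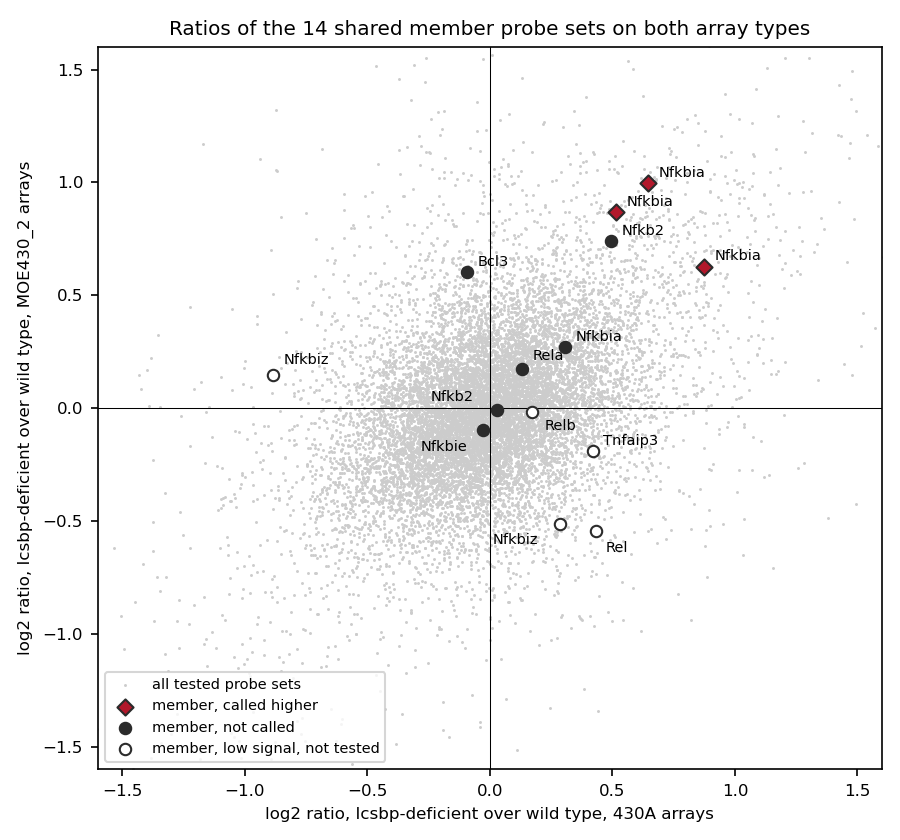
Log2 ratio of Icsbp-deficient over wild type GMP on the 430A arrays (x axis) against that on the MOE430_2 arrays (y axis), for the 14 shared member probe sets over all tested probe sets in grey, with axes cut to the members' range, so that some tested probe sets lie beyond them. The 3 red diamonds, all Nfkbia, lie in the upper right with ratios of 0.51 or more on each type, and open circles are probe sets too dim to be tested.

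Most genes upstream of the members did not pass the test, as was true of 7404 of all 7852 tested genes. Of 37 tested genes of the IKK complex, its adaptors and the other brakes on the pathway, 1 rose and 0 fell. Over all tested genes 3.27% rose and 2.43% fell. At an unadjusted p under 0.05 in limma 4 of the 37 were higher and 0 lower, where 9.53% of all tested genes were higher and 10% lower. The median log2 ratio of the 37 genes was 0.05. The riser was Ikbke, a kinase related to IKK that acts mainly in the antiviral interferon response. Its signals were 1324 and 905 in Icsbp-deficient and 578 and 669 in wild type GMP, a log2 ratio of 0.78 ± 0.18 (limma adjusted p = 0.0316). Both Icsbp-deficient values lay above both wild type values, with log2 ratios of 1.12 and 0.44, but the call held in only 5 of 9 settings with the block, with adjusted p from 0.0139 to 0.12.

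The catalytic subunit Ikbkb had signals of 1748 and 1299 in Icsbp-deficient and 1641 and 1444 in wild type GMP, a log2 ratio of -0.02 ± 0.13. Tab2, an adaptor of the kinase upstream of IKK, had a log2 ratio of 0.07 ± 0.13. Of 9 tested genes of the IKK list 8 did not pass. Among 16 tested adaptors and ubiquitin ligases 0 rose and 0 fell, with 2 higher and 0 lower at an unadjusted p under 0.05. They included Fbxw11, part of a ligase that recognises the marked inhibitors, at 0.24 ± 0.12 (adjusted p = 0.298), and the apoptosis inhibitor Xiap at 0.44 ± 0.13 (adjusted p = 0.0912).

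Of 12 tested brakes outside the members 0 rose and 0 fell, with 1 higher and 0 lower at an unadjusted p under 0.05. Tax1bp1 and Tnip1, partners of A20, had log2 ratios of 0.08 ± 0.12 and 0.24 ± 0.13. Nfkbib and Pdlim2 were picked out after their values were seen. Nfkbib, the I-kappaB-beta gene, had signals of 628 and 292 in Icsbp-deficient and 766 and 374 in wild type GMP, at -0.28 ± 0.15 (adjusted p = 0.371). Pdlim2, a ligase for nuclear Rela, had 337 and 337 in Icsbp-deficient and 208 and 202 in wild type GMP, and its log2 ratio of 0.62 ± 0.17 did not pass the test (adjusted p = 0.0658). It passed when the fit was made over 1 probe set for each gene, an alternative added after seeing the data (adjusted p = 0.0392).

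Most reported NF-kappaB target genes did not pass the test. Of 40 genes 21 were bright enough to be tested, and 2 rose, 1 fell and 18 did not pass, with a median log2 ratio of 0.11. At an unadjusted p under 0.05 in limma 6 of the 21 were higher and 2 lower, where 9.53% of all tested genes were higher and 10% lower. Over all tested genes 3.27% rose and 2.43% fell. Gadd45b, a stress-induced gene linked to survival, had signals of 1273 and 1450 in Icsbp-deficient and 743 and 648 in wild type GMP, and by limma it was 0.93 ± 0.15 higher on the log2 scale (adjusted p = 0.00649). Its other probe sets, 1449773_s_at at 0.46 ± 0.15 and 1420197_at at 0.21 ± 0.22, did not pass. Ebi3, a cytokine subunit, had 950 and 812 in Icsbp-deficient and 470 and 471 in wild type GMP, at 0.85 ± 0.15 (adjusted p = 0.00934). For both genes every Icsbp-deficient value lay above every wild type value.

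Vcam1, an adhesion molecule, fell, and its signals were 277 and 238 in Icsbp-deficient and 507 and 750 in wild type GMP, a log2 ratio of -1.11 ± 0.19 (limma adjusted p = 0.00776). The call ended without the filter (adjusted p = 0.0556) and without the trend (adjusted p = 0.0501), and its adjusted p over the 9 settings with the block ran between 0.00214 and 0.0556. A further Vcam1 probe set, 1415989_at, passed at -0.77 ± 0.16, while 1451314_a_at gave log2 ratios of -0.86 and 0.23 and did not pass. Irf1, a transcription factor, was picked out after its values were seen. Irf1 had 1675 and 741 in Icsbp-deficient and 1176 and 480 in wild type GMP, at 0.55 ± 0.14. Its adjusted p was 0.0516 over all probe sets and 0.0303 in the fit over 1 probe set for each gene. The brightest targets, Cd44 and Myc, had log2 ratios of 0.36 ± 0.11 (adjusted p = 0.102) and -0.02 ± 0.12. Il1b, Tnf, Il6, Cxcl1 and Cxcl2 were picked by name after the values were seen: Il1b was at -0.01 ± 0.22, and Tnf, Il6, Cxcl1 and Cxcl2 were too dim to be tested.

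**Figure D4:**
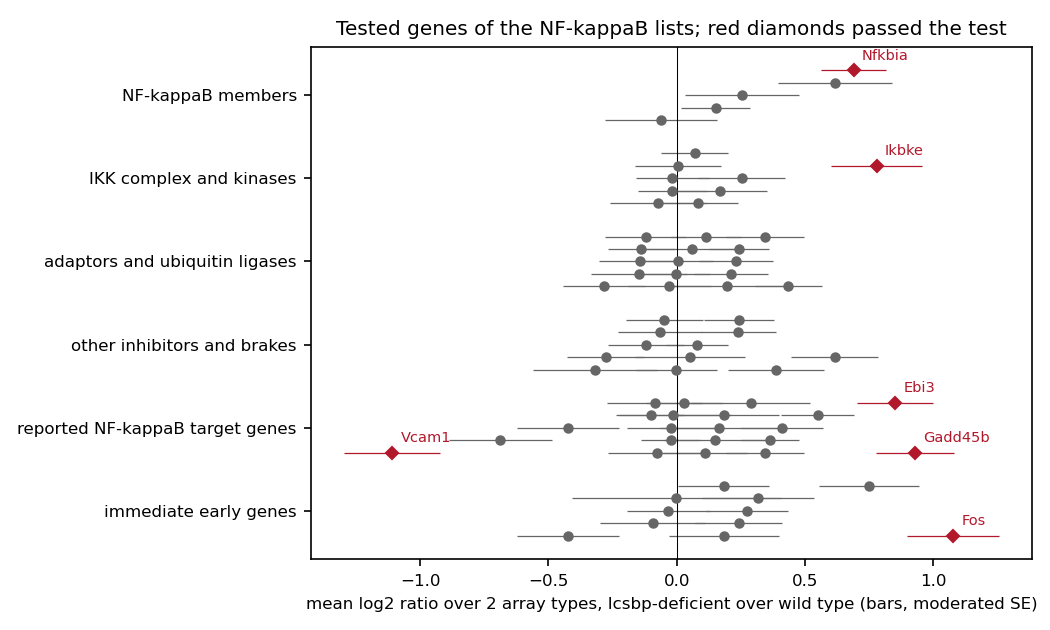
Mean log2 ratio over the 2 array types of Icsbp-deficient over wild type GMP (x axis) for each tested gene of the members and of 5 lists (y axis, points spread vertically for legibility); bars are moderated standard errors and red diamonds passed the test. The red points are Nfkbia, Ikbke, Ebi3, Gadd45b and Fos on the right and Vcam1 on the left.

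Marker lists of other cell types were compared between the genotypes as well. The sums below are over every marker of a list with a shared probe set, tested or not. Among all tested genes 3.27% rose and 2.43% fell. Of 11 tested neutrophil markers 9 rose and 0 fell, and their summed signal was 29793 and 55913 in Icsbp-deficient GMP, against 11039 and 20231 in wild type GMP. Of 9 tested basophil, mast cell and eosinophil markers 8 fell, with sums of 2404 and 2268 in Icsbp-deficient and 6475 and 8964 in wild type GMP. Of 11 tested monocyte and macrophage markers 3 rose (Ccr2, Cd68 and F13a1) and 3 fell (Ly86, Klf4 and Ctss), and their median log2 ratio was -0.01. Their sums were 19737 and 25632 in Icsbp-deficient and 14607 and 18948 in wild type GMP. F13a1 differed most in signal, at 10020 and 14595 in Icsbp-deficient and 4900 and 8008 in wild type GMP. Other markers changed in both directions, which partly cancelled in the sums. Ccr2 had 2278 and 3581 in Icsbp-deficient and 821 and 1283 in wild type GMP. Ly86 had 15.6 and 9.46 in Icsbp-deficient and 1517 and 1878 in wild type GMP. Of 5 tested dendritic cell markers 3 fell, with sums of 1221 and 506 in Icsbp-deficient and 1467 and 1004 in wild type GMP. The 8 markers of T and NK cells were all too dim to be tested.

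Genes that respond within minutes to handling were read too, since Nfkbia is itself an early response gene. Of 11 tested immediate early genes 1 rose and 0 fell (2 higher and 0 lower at an unadjusted p under 0.05), with a median log2 ratio of 0.18. Among all tested genes 3.27% rose and 2.43% fell, and 9.53% were higher and 10% lower at the unadjusted threshold. The riser was Fos, at 632 and 535 in Icsbp-deficient and 210 and 299 in wild type GMP (log2 ratio 1.08 ± 0.18, limma adjusted p = 0.00727). Without the filter Fos lost its call (adjusted p = 0.0537), the highest of the 9 settings with the block, where the lowest was 0.00281. Ier2 was at 0.27 ± 0.16 (adjusted p = 0.401). Klf6, a transcription factor picked out after its values were seen, had 255 and 217 in Icsbp-deficient and 155 and 95.4 in wild type GMP, and its log2 ratio of 0.75 ± 0.20 did not pass (adjusted p = 0.0556). The part of cell composition or of handling in the rise of Nfkbia was not tested.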

How the data were processed

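GMP RNA was measured on 4 Affymetrix arrays. The deposited values are signal intensity for each probe set on a linear scale; the sources used here do not say how the authors normalized them. GCOS is the tool named by the submitters' processing notes, for the MOE430_2 type alone. Per the labels' protocols, an ENZO kit labelled the RNA of the Icsbp-deficient 430A array, and the MOE430_2 RNA went through a one-cycle kit. The sources used here give no kit for the wild type 430A array, so any effect of kit on that type cannot be told apart from genotype.

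After 64 control probe sets were dropped, the 22626 shared probe sets were scaled to a 2% trimmed mean of 500, given an offset of 50, put on the log2 scale and quantile normalized within each array type. Those under the 40th percentile of mean signal were not tested. Limma 3.58.1 in R 4.3.3, with array type as block and with trended eBayes, gave two-sided tests over all 13576 tested probe sets at an adjusted threshold of 0.05. This left 1 residual degree of freedom, and moderation added 9.34. The fit was tested on simulated data. The number of arrays limits the precision. Each gene was read from its brightest tested probe set. Of the shared probe sets 20380 had 1 symbol, 691 several and 1555 none here, and 20351 symbols were updated through RefSeq (GRCm38.p6). Probe sets on the MOE430_2 array alone took that array's scale factor and offset and were quantile normalized over the whole array. The design text describes a further Icsbp-deficient preparation, not analysed here.

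The members and lists were chosen with earlier results of these data known. Named genes were the 10 members, called list genes (at most 6 in each direction), the 2 brightest of each list, Irf8 and the GMP markers. Nfkbib, Pdlim2, Irf1, Klf6, Il1b, Tnf, Il6, Cxcl1 and Cxcl2 fall outside this rule and were picked after their values were seen. Lists of B cell, erythroid and megakaryocyte markers were run as well. Alternatives changed the normalization, offset, filter, trend, block and arrays.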

Additional observations from a re-analysis of the deposited data

How the results depend on the processing

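Nfkbia, the 1 member called higher, and its 3 called probe sets kept their calls with scaling alone, cyclic loess, offsets of 16 and 100 and the 60th percentile filter, and with values as deposited, where 2 of the 3 probe sets were called. With no filter, no trend or no block of array type, 0 members and 0 member probe sets were called. The signalling count of 1 became 0 with values as deposited, the offset of 16, no filter, no trend or no block, and 2 in the fit over 1 probe set for each gene, an alternative chosen after seeing the data. The target count of 3 became 0 with no block, was 2 with no filter and with no trend, where Vcam1 was lost, and was 3 or 4 in the other settings with all arrays. Over all tested probe sets 716 were called, against 398 with values as deposited, 266 with no filter, 272 with no trend and 1 with no block. With the 60th percentile filter Nfkb2, Nfkbie and Bcl3 were too dim to be tested.

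With the block, leaving out an array leaves no residual degree of freedom, so arrays were left out of the model with no block, where a lone array is assumed to vary like the others. All counts of members, member probe sets, signalling genes and targets were then 0 to 0, as they were in that model with all arrays, and 36 to 54 probe sets were called in all. Such a ratio sets a lone array of 1 genotype against arrays of both types. It therefore also holds the signal difference between the array types, and its range is not a spread of the genotype difference alone. Within the array types the ratios were 0.13 and 0.17 for Rela and 0.49 and 0.74 for Nfkb2. They were -0.03 and -0.10 for Nfkbie and -0.09 and 0.60 for Bcl3. With an array left out, the log2 ratio of Nfkbia ran between 0.51 and 0.87. That of Rela ran between -0.034 and 0.34 and was below 0 without Icsbp-deficient replicate 1 (-0.012) and without wild type replicate 2 (-0.034). That of Nfkbie ran between -0.16 and 0.032 and was above 0 without Icsbp-deficient replicate 2 (0.032). That of Nfkb2 ran between 0.13 (without wild type replicate 2) and 1.10 (without wild type replicate 1), against 0.62 with all arrays, and that of Bcl3 between 0.0023 and 0.51 without the same arrays, against 0.25. The block of array type pairs the 2 arrays of each type, and the values with no block are those without this pairing. Dim signal limits Rel, Relb, Nfkbiz and Tnfaip3.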

Other observations

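Sums of scaled signal here are over every marker of a list with a shared probe set. Among all tested genes 3.27% rose and 2.43% fell by limma's test, and 9.53% were higher and 10% lower at an unadjusted p under 0.05. Of 3 tested B cell markers 0 passed limma's test (2 higher and 0 lower at an unadjusted p under 0.05), with sums of 1067 and 849 in Icsbp-deficient GMP (430A, then MOE430_2) and 844 and 625 in wild type GMP. Of 5 tested erythroid markers 2 fell, with sums of 3596 and 3076 in Icsbp-deficient and 4441 and 5108 in wild type GMP. Most of each sum was Tfrc, at 2950 and 2865 in Icsbp-deficient and 3010 and 3244 in wild type GMP, which did not pass. The 2 that fell were Car1 and Car2, with log2 ratios of -2.37 ± 0.36 and -2.21 ± 0.21. Of 4 tested megakaryocyte markers 1 fell, with sums of 817 and 409 in Icsbp-deficient and 1126 and 642 in wild type GMP.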
